A study of Arabidopsis thaliana with 12 samples.

Results

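This comparison set Arabidopsis thaliana plants that overexpress ARR22 (ARR22-ox) and had been given t-zeatin against wild-type Col-0 plants given the same hormone. The arrays were chosen by their genotype and treatment labels alone. They were 3 ARR22-ox t-zeatin arrays and 3 Col-0 t-zeatin arrays, 6 of the 12 arrays of the series. Both groups were whole plants, 21 days old and vegetative, and both had been exposed for 3 h to 20 µM of t-zeatin, one of the natural cytokinins. The other 6 arrays, 3 of ARR22-ox untreated and 3 of Col-0 untreated plants of that age, show the genotype difference without added hormone. Those plants had no treatment, which is not a mock treatment. The promoter that drives ARR22, the number of independent lines and the number of plants behind an array are not given in the labels used here. Only the Col-0 t-zeatin titles carry a suffix, of unstated meaning, so whatever it marks cannot be told apart from that group.

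Cytokinins bind receptor kinases in membranes, which pass phosphoryl groups through phosphotransfer proteins to response regulators. Type-B response regulators are transcription factors, and among their targets are the type-A response regulators, which dampen the signal. ARR22, which the annotation lists as RR22, belongs to the small type-C class: it has a receiver domain but no DNA-binding part. Plants with high ARR22 levels are known to be small and to respond weakly to cytokinin.

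RR22 (AT3G04280) was read first as a check of the genotype labels. Its signal, the intensity of its probe set on a linear scale, was 2792, 2752 and 3132 in ARR22-ox t-zeatin, against 0.572, 0.585 and 0.397 in Col-0 t-zeatin. It was 2857, 3248 and 3661 in ARR22-ox untreated, against 0.638, 1.92 and 0.838 in Col-0 untreated. The genotypes did not overlap with or without hormone, and the labels matched the gene they name. The log2 difference after t-zeatin was 12.47 ± 0.32, and it was 7.46 when 16 was added to each signal before log2, because the Col-0 signals were at the bottom of the scale. Every difference given here is ARR22-ox minus Col-0 in log2 units with the standard error of a limma model on all 12 arrays. A probe set was called where the p-value, adjusted by Benjamini-Hochberg over 22746 probe sets, was under 0.05.

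Arrays of the same t-zeatin group correlated at a mean r of 0.962 to 0.964 over log2 signals, while arrays of different t-zeatin groups correlated at 0.923 to 0.927. ARR22-ox untreated replicate 3 stood apart from its group, with a mean r of 0.936 and a GAPDH 3'/5' probe ratio of 1.82, against 0.88 to 1.08 on all other arrays. It is not among the t-zeatin arrays and acts on the t-zeatin difference only through the shared variance estimate. It does enter the untreated difference, and the difference between the comparisons, directly. Values of those for single genes are given only with this array in the fit. The ubiquitin 3'/5' ratio, a sign of RNA quality and labelling, was 1.97, 1.85 and 1.92 in ARR22-ox t-zeatin, against 2.47, 2.31 and 2.42 in Col-0 t-zeatin. The actin ratio was 4.75, 5.08 and 5.29 in ARR22-ox t-zeatin, against 6.38, 6.12 and 6.75 in Col-0 t-zeatin. Neither ratio overlapped between the groups, and their part in the results was not tested. Of the organ markers, the leaf gene RCA, which activates Rubisco, did not pass the test (-0.17 ± 0.08, adjusted p = 0.164), and the root beta-glucosidase PYK10 was lower by a log2 difference of -0.57 ± 0.08 (adjusted p = 8.44e-05). RCA was called lower in 2 of 19 alternatives. The shoot meristem gene CLV3 was dim on all arrays and did not pass the test. In RNA from whole plants, fewer cells of a type and less RNA per cell cannot be told apart. Nothing in the labels tells if replicate arrays are from separate plants, so p-values measure only the spread between these arrays.

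Of the 22746 probe sets, 7573 (33.3%) were called between ARR22-ox t-zeatin and Col-0 t-zeatin. Of all probe sets, 15.1% (3445) were higher and 18.1% (4128) were lower in ARR22-ox. The median difference over all probe sets was -0.04. At least 2-fold differences were found in 2665 of the called probe sets, 1408 higher and 1257 lower in ARR22-ox. In 1270 of the called probe sets both group means lay below 42.2, the median signal over all probe sets, where log2 differences are least certain. Counts for gene groups are read beside these background shares. Counts given without ARR22-ox untreated replicate 3 are read beside the 9736 of 22746 probe sets called in that setting. The lists and their members were chosen with earlier results of these data known. Their counts therefore describe those members and are no independent test of a theme.

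The cytokinin-induced genes ARR15, RR16 and UGT76C2 were among the 15 lowest genes of the comparison. The annotation named 2 measured type-A response regulators, ARR15 and RR16 (ARR16), which are switched on by cytokinin and dampen its signal. ARR15 (AT1G74890) had signals of 1.86, 8.21 and 8.46 in ARR22-ox t-zeatin, against 152, 155 and 135 in Col-0 t-zeatin. RR16 (AT2G40670) had 10.1, 8.36 and 7.23 in ARR22-ox t-zeatin, against 232, 236 and 264 in Col-0 t-zeatin. In both genes every ARR22-ox array was far below every Col-0 array. The log2 difference was -4.86 ± 0.46 for ARR15 (adjusted p = 4.67e-06) and -4.85 ± 0.23 for RR16 (adjusted p = 1.19e-08). With 16 added before log2, which shrinks differences that rest on dim signals, they were -2.89 and -3.40. Without ARR22-ox t-zeatin replicate 1, the lowest array, the ARR15 difference was -4.14.

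UGT76C2 (AT5G05860), a glucosyltransferase that inactivates cytokinins by N-glucosylation, had signals of 12.1, 16 and 25.2 in ARR22-ox t-zeatin, against 202, 215 and 208 in Col-0 t-zeatin. The groups did not overlap, and the log2 difference was -3.62 ± 0.31 (adjusted p = 1.87e-06), or -2.75 with the offset. Its close relative UGT76C1, which carries out the same reaction, had 33, 49.1 and 35.1 in ARR22-ox t-zeatin, against 48.6, 47.9 and 45.9 in Col-0 t-zeatin. These groups overlapped, and the difference of -0.30 ± 0.15 did not pass the test (adjusted p = 0.154). UGT73C1, which can O-glucosylate zeatin, was dim in both groups, with a mean of 6.78 ± 3.48 in ARR22-ox t-zeatin and 0.617 ± 0.044 in Col-0 t-zeatin (SD, n = 3 each). Its log2 difference of 3.28 ± 0.58 (adjusted p = 0.000679) shrank to 0.44 with the offset.

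Without added hormone the same genes looked different. ARR15 had 7.66, 12.2 and 10.5 in ARR22-ox untreated, against 12.1, 12.6 and 11.7 in Col-0 untreated, and its difference of -0.29 did not pass the test (adjusted p = 0.704). RR16 had 13.8, 14.3 and 24.9 in ARR22-ox untreated, against 23.7, 26.6 and 31.1 in Col-0 untreated, a called difference of -0.66 (adjusted p = 0.0428). UGT76C2 had 9.83, 16.4 and 24.2 in ARR22-ox untreated, against 39.8, 44.5 and 31.9 in Col-0 untreated, a called difference of -1.28 (adjusted p = 0.00667). In these 3 genes every ARR22-ox t-zeatin array thus lay below every Col-0 untreated array, and the Col-0 t-zeatin arrays stood above all others. The t-zeatin difference minus the untreated difference was -4.57 for ARR15, -4.18 for RR16 and -2.34 for UGT76C2, each called. Of the 2 measured type-B response regulators, RR18 was called lower (-1.80 ± 0.63, adjusted p = 0.0431) at dim signals of 2.27, 1.73 and 4.5 in ARR22-ox t-zeatin, against 4.52, 14 and 11.8 in Col-0 t-zeatin, and kept that call in 6 of the 17 processing alternatives that tested it. RR19 did not pass the test (-0.83 ± 0.64, adjusted p = 0.379).

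**Figure D1:**
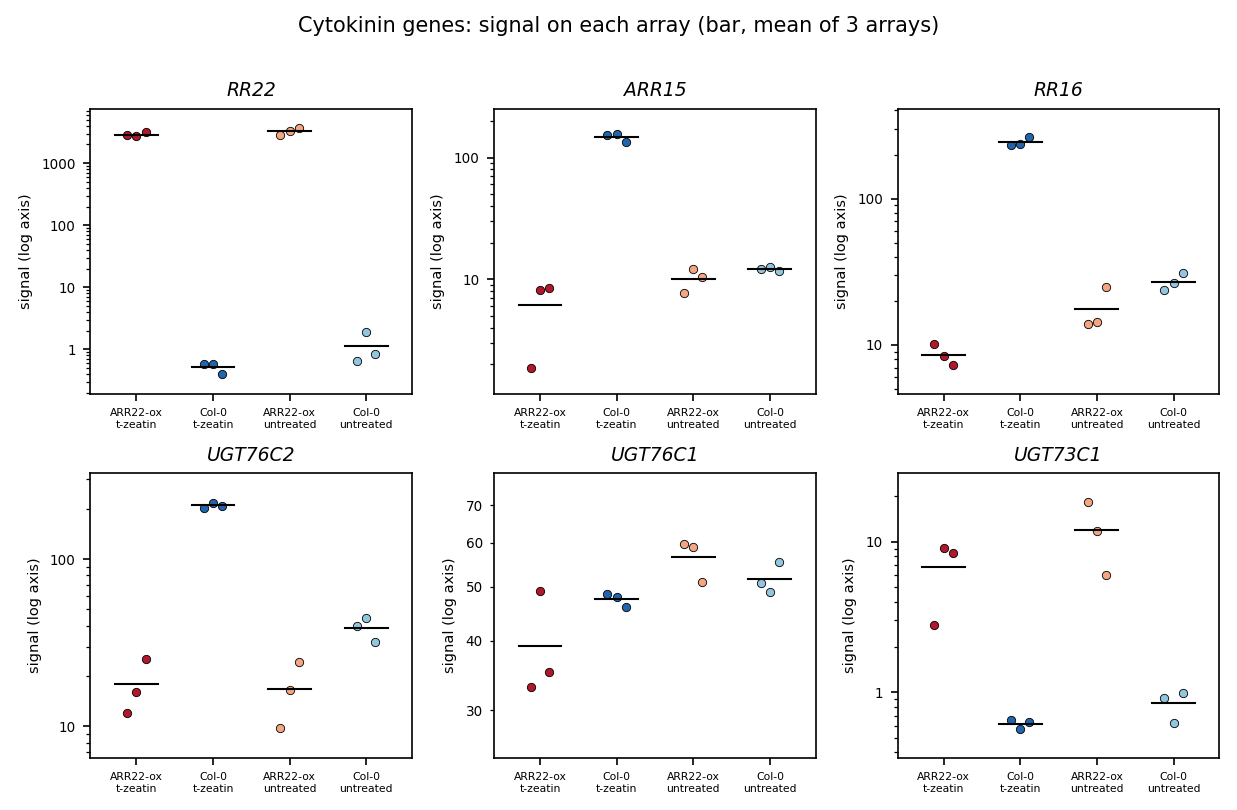
Signal per array (log axis) of RR22, ARR15, RR16, UGT76C2, UGT76C1 and UGT73C1 in the 4 groups, with points for arrays and bars for the mean of 3. ARR15, RR16 and UGT76C2 reach 135 to 264 only in Col-0 t-zeatin, and UGT76C1 overlaps between the t-zeatin groups.

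The genes furthest apart in signal were next described, taking those whose groups did not overlap and whose brighter group reached at least the median signal of 42.2. After RR22, the highest symbol-named genes were ATC, a relative of the flowering repressor TFL1, and JRG21, a jasmonate-regulated oxygenase. ATC (AT2G27550) had 154, 153 and 149 in ARR22-ox t-zeatin, against 7.53, 16.7 and 7.29 in Col-0 t-zeatin, a log2 difference of 3.97 ± 0.26 (adjusted p = 2.28e-07). JRG21 (AT3G55970) had 662, 663 and 652 in ARR22-ox t-zeatin, against 49, 44.9 and 48.1 in Col-0 t-zeatin, a difference of 3.80 ± 0.36 (adjusted p = 4.26e-06). The other 12 genes of this group are listed by locus only, and their differences ran from 3.65 to 4.61. Among them, AT5G19890 had 966, 951 and 1067 in ARR22-ox t-zeatin, against 49, 52.3 and 54.3 in Col-0 t-zeatin (19.2-fold higher, adjusted p = 3.35e-10). AT1G49570 had 657, 596 and 611 in ARR22-ox t-zeatin, against 35.1, 44.5 and 39.9 in Col-0 t-zeatin. All 3 ARR22-ox arrays of each gene lay well above all 3 Col-0 arrays. AT2G39980 had 428, 402 and 444 in ARR22-ox t-zeatin, against 37.8, 26.6 and 29.9 in Col-0 t-zeatin, and AT5G39580 had 496, 525 and 494 in ARR22-ox t-zeatin, against 38.3, 36.8 and 36.5 in Col-0 t-zeatin. Those were 13.7-fold and 13.6-fold higher. AT4G36700, AT5G22555, AT3G16330, AT5G49690, AT4G26950, AT3G44970 and AT3G19550 had Col-0 t-zeatin means under 10, and with the offset their differences were 1.60 to 2.36. AT3G19550 had the widest range among the 15 when each array was left out in turn, and was 2.70 when Col-0 t-zeatin replicate 2 was left out.

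The 15 lowest genes held ARR15, RR16, UGT76C2 and GH9B8, a predicted cellulose-cutting endoglucanase of the GH9 family. GH9B8 (AT2G32990) had 10.9, 18.4 and 4.31 in ARR22-ox t-zeatin, against 141, 120 and 102 in Col-0 t-zeatin, a log2 difference of -3.66 ± 0.41 (adjusted p = 1.71e-05). The lowest of all was AT4G11190, with 0.662, 1.11 and 0.591 in ARR22-ox t-zeatin, against 214, 224 and 212 in Col-0 t-zeatin. Its difference of -8.16 ± 0.30 became -3.79 with the offset. AT5G47980 had 10, 6.36 and 6.41 in ARR22-ox t-zeatin, against 284, 267 and 259 in Col-0 t-zeatin (-5.18 ± 0.30, adjusted p = 6.04e-08). AT5G12110 had 14.8, 21.1 and 9.6 in ARR22-ox t-zeatin, against 277, 287 and 269 in Col-0 t-zeatin (-4.27 ± 0.21, adjusted p = 2.08e-08). AT1G14960 had 13.5, 12.5 and 13.2 in ARR22-ox t-zeatin, against 247, 245 and 223 in Col-0 t-zeatin (-4.19 ± 0.20, adjusted p = 1.2e-08). In the last 3 of these genes the Col-0 t-zeatin arrays were between 223 and 287, while no ARR22-ox t-zeatin array passed 21.1. The other 7 loci had differences of -6.68 to -3.29, or -2.70 to -1.87 with the offset.

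**Figure D2:**
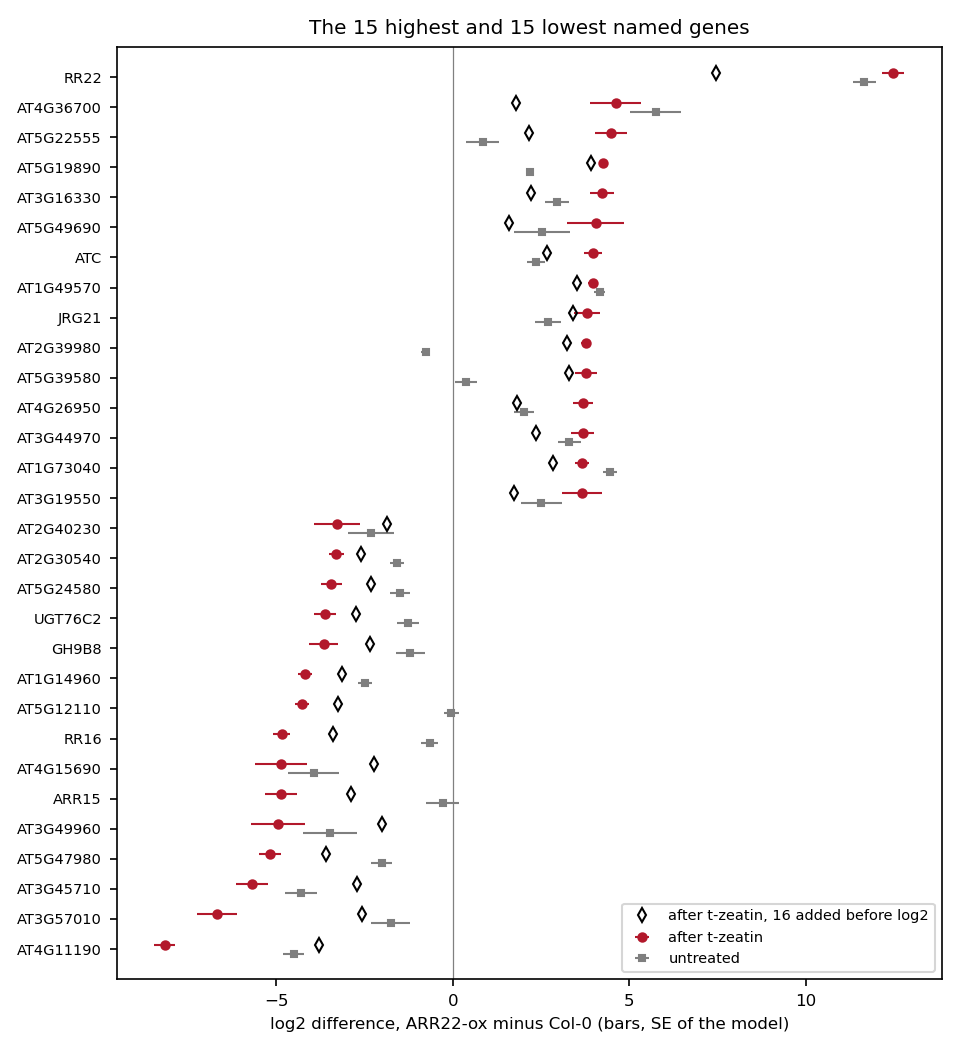
Log2 difference, ARR22-ox minus Col-0, of the 15 highest and 15 lowest genes after t-zeatin. Red circles give the t-zeatin difference and grey squares the untreated difference (bars, SE of the limma model), and open diamonds the t-zeatin difference with 16 added to each signal before log2.

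Genes of touch, wounding and rapid stress were higher in ARR22-ox t-zeatin. Of 9 measured genes of this list 7 were called higher and 0 lower, with a median difference of 1.93, beside 15.1% higher and a median of -0.04 over all probe sets. STZ (AT1G27730), a zinc finger repressor induced by many stresses, had 613, 612 and 626 in ARR22-ox t-zeatin, against 85.4, 94.3 and 86.9 in Col-0 t-zeatin. The U-box ubiquitin ligase PUB22, which dampens immune signalling, had 158, 169 and 170 in ARR22-ox t-zeatin, against 30.9, 27.8 and 29.6 in Col-0 t-zeatin. Both genes separated cleanly by genotype, with differences of 2.80 ± 0.16 (adjusted p = 4.63e-08) and 2.49 ± 0.13 (adjusted p = 2.69e-08). PUB23 was higher by 1.93, the senescence and defence factor WRKY6 by 2.01 and WRKY22 by 1.18. The calmodulin-like calcium sensors CML38 and CML42 were higher by 1.98 and 1.39. WRKY53 (-0.12 ± 0.24, adjusted p = 0.769) and CML37 (1.68 ± 1.09, adjusted p = 0.285) did not pass the test. Among untreated plants the list ran mostly the other way, with 1 gene called higher and 6 lower in ARR22-ox. STZ then had 136, 116 and 76.5 in ARR22-ox untreated, against 317, 309 and 324 in Col-0 untreated, and PUB22 had 29.7, 30.5 and 24.4 in ARR22-ox untreated, against 33.3, 33.1 and 28.2 in Col-0 untreated. STZ was called lower there (-1.57, adjusted p = 7.56e-06), while the PUB22 groups overlapped and did not pass the test (-0.17, adjusted p = 0.39).

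Families that share members with this list were counted in whole. Of 9 U-box ligases 5 were called higher, PUB22 and PUB23 among them, and 1 lower (median 0.97). PUB24, which is not on the list, was higher (1.33 ± 0.11, adjusted p = 1.63e-06). Of 7 calmodulin-like genes 3 were higher, CML38 and CML42 among them, and 1 was lower (median 1.39). CML41 had 263, 258 and 246 in ARR22-ox t-zeatin, against 64.8, 77.4 and 77 in Col-0 t-zeatin, and CML30 had 30.9, 24.1 and 34.1 in ARR22-ox t-zeatin, against 89.7, 89.3 and 90.3 in Col-0 t-zeatin. CML41 was thus higher and CML30 lower in every ARR22-ox array. Of 7 WRKY factors 3 were called higher and 0 lower (42.9% called, against 33.3% of all probe sets). WRKY47 was the 1 called gene beyond the listed WRKY6 and WRKY22.

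The lists for the other hormones differed in how many members were called. The 4 abscisic acid, cold and drought genes and the ethylene factor EIN3 held no call with all arrays in the fit. Without ARR22-ox untreated replicate 3, 3 of those 4 genes were called higher, and EIN3 was still not called. Of 4 jasmonate genes 3 were called higher (median 1.68): JRG21, AT2G38240 (2.24 ± 0.44, adjusted p = 0.00144) and PDF1.2. PDF1.2, a defensin that marks jasmonate and ethylene signalling, had 1704, 1768 and 1729 in ARR22-ox t-zeatin, against 810, 775 and 791 in Col-0 t-zeatin. The thionin gene THI2.1, also induced by jasmonate, had overlapping groups and a difference of -0.05 ± 0.35 (adjusted p = 0.934). Without hormone JRG21 (2.70) and THI2.1 (2.25) were called higher in ARR22-ox, PDF1.2 (-1.17) was called lower and AT2G38240 (0.57) was not called. SAG101, a lipase-like partner in salicylate-linked immunity, had 48.1, 57.1 and 38.4 in ARR22-ox t-zeatin, against 19, 25.5 and 20.8 in Col-0 t-zeatin (1.13 ± 0.19, adjusted p = 0.00054). The glutaredoxin GRX480 was called at 1.01 ± 0.30 (adjusted p = 0.0193) and lost the call when any 1 of 4 t-zeatin arrays was left out.

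GH3.3, which couples auxin to amino acids, had 225, 232 and 151 in ARR22-ox t-zeatin, against 35.3, 40.7 and 38.4 in Col-0 t-zeatin. GH3.17, another auxin-conjugating enzyme, had 46.1, 41.2 and 49.9 in ARR22-ox t-zeatin, against 139, 135 and 139 in Col-0 t-zeatin. The enzymes of this class thus differed in opposite directions, by 2.38 ± 0.21 (adjusted p = 2.66e-06) and -1.59 ± 0.10 (adjusted p = 1.46e-07). WES1 (GH3.5) was higher by 0.75, and the auxin response repressor IAA29 lower, with a difference of -1.29. Over the GH3, Aux/IAA and YUC genes 3 of 16 were higher and 2 lower (31.2% called, against 33.3% of all probe sets). All 3 measured gibberellin receptors were called higher: GID1B by 1.83, GID1C by 0.63 and GID1A by 0.61. GID1B had 154, 165 and 137 in ARR22-ox t-zeatin, against 39.8, 43.2 and 45 in Col-0 t-zeatin. EXO, a growth gene induced by brassinosteroid, had 461, 457 and 482 in ARR22-ox t-zeatin, against 253, 258 and 274 in Col-0 t-zeatin. It had 98.7, 112 and 232 in ARR22-ox untreated, against 1804, 1953 and 1843 in Col-0 untreated, so the genotypes stood in opposite order without hormone.

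Expansins loosen the cell wall during growth. All 5 measured genes of the expansin list were called lower in ARR22-ox t-zeatin (median -2.48), beside 18.1% lower over all probe sets. EXPA8 had 44.4, 34.2 and 43.6 in ARR22-ox t-zeatin, against 245, 226 and 248 in Col-0 t-zeatin, and EXPA4 had 60.9, 69 and 62.6 in ARR22-ox t-zeatin, against 354, 287 and 293 in Col-0 t-zeatin. The groups were far apart in both, with differences of -2.56 ± 0.28 (adjusted p = 1.32e-05) and -2.27 ± 0.22 (adjusted p = 4.72e-06). EXPB3 and EXPA15 differed by -2.48 and -2.19, and the dim EXPB1 by -3.29, or -1.24 with the offset. Without hormone 3 of the 5 listed genes were called lower and 0 higher (median -0.88). For 4 of the 5 the genotype difference was called lower after t-zeatin than without it. The exception was EXPA8, whose untreated difference was -2.51. The whole expansin family was less uniform: of 18 genes 3 were called higher and 7 lower, the 5 listed genes among them (median -0.26). EXLB1, an expansin-like gene, was higher by 1.38 ± 0.19 (adjusted p = 0.000118).

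Of 15 GH9 endoglucanases 4 were lower and 0 higher (26.7% called, against 33.3% of all probe sets). Of the 15, 11 lay below the median signal in both groups. GH9C2 had 77.9, 77.3 and 81 in ARR22-ox t-zeatin, against 433, 461 and 447 in Col-0 t-zeatin, and GH9B13 had 25.7, 21.2 and 12 in ARR22-ox t-zeatin, against 207, 159 and 183 in Col-0 t-zeatin. Their differences were -2.51 ± 0.19 (adjusted p = 7.79e-07) and -3.28 ± 0.36 (adjusted p = 1.4e-05). Xyloglucan endotransglucosylases, which cut and rejoin wall xyloglucan, went both ways. Of 10, 2 were higher and 2 lower (40% called, against 33.3% of all probe sets). XTH18 had 487, 517 and 627 in ARR22-ox t-zeatin, against 103, 88.6 and 131 in Col-0 t-zeatin, whereas XTH32 had 90.8, 97 and 93.6 in ARR22-ox t-zeatin, against 392, 490 and 517 in Col-0 t-zeatin. XTH18 was higher on every ARR22-ox array (2.35 ± 0.41, adjusted p = 0.000645) and XTH32 lower on every one (-2.30 ± 0.11, adjusted p = 1.77e-08). Of 22 genes of the TBL family, which holds wall acetyltransferases, 3 were higher and 7 lower (45.5% called, against 33.3% of all probe sets). Of the 22, 10 lay below the median signal in both groups. TBL36 differed by -2.65 ± 0.21 (adjusted p = 8.55e-07) and TBL37 by 1.80 ± 0.19 (adjusted p = 1.29e-05).

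Of 7 tubulin genes, which encode the subunits of microtubules, 6 were called lower and 0 higher (median -1.07). TUB1 had 57.2, 57.7 and 56.4 in ARR22-ox t-zeatin, against 170, 165 and 178 in Col-0 t-zeatin, and TUB7 had 102, 110 and 104 in ARR22-ox t-zeatin, against 311, 334 and 333 in Col-0 t-zeatin. No ARR22-ox array reached the lowest Col-0 array in either gene, and TUB6 differed by -1.45 ± 0.14 (adjusted p = 6.43e-06). IQD proteins bind calmodulin, and several are known to associate with microtubules. Of 15 measured IQD genes 7 were lower and 0 higher (median -0.46), with IQD24 at -1.27 ± 0.12 (adjusted p = 4.38e-06) and iqd21 at -1.14 ± 0.10 (adjusted p = 3.55e-06). Among 11 RALF-like peptides, which act in growth control, 2 were higher and 3 lower (45.5% called, against 33.3% of all probe sets). RALFL34 had 240, 230 and 254 in ARR22-ox t-zeatin, against 662, 692 and 699 in Col-0 t-zeatin, and RALFL24 was lower by a similar size (-1.52 ± 0.09, adjusted p = 7.6e-08).

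**Figure D3:**
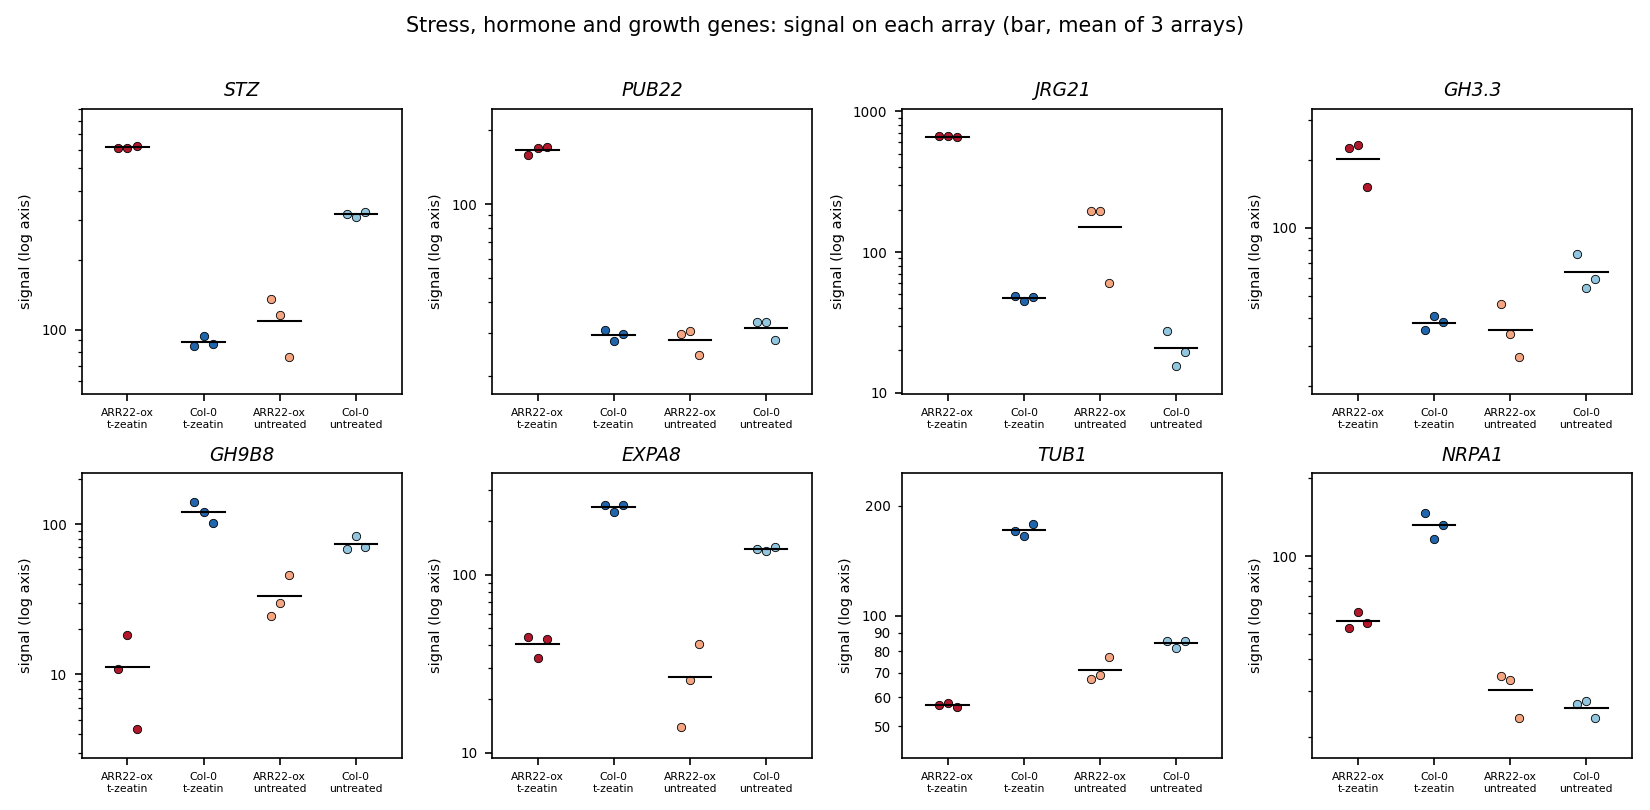
Signal per array (log axis) of STZ, PUB22, JRG21, GH3.3, GH9B8, EXPA8, TUB1 and NRPA1 in the 4 groups, with points for arrays and bars for the mean of 3. After t-zeatin the first 4 genes are higher in all ARR22-ox arrays and the last 4 lower.

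Genes of the machinery that makes ribosomal RNA were lower. All 5 measured genes of the RNA polymerase I and nucleolus list were called lower, by log2 differences of -1.23 to -0.70. NRPA1, the largest subunit of RNA polymerase I, had 52.5, 60.6 and 55.1 in ARR22-ox t-zeatin, against 147, 116 and 132 in Col-0 t-zeatin. NRPA2, its second-largest subunit, had 155, 156 and 150 in ARR22-ox t-zeatin, against 243, 232 and 277 in Col-0 t-zeatin. The groups did not overlap, with differences of -1.23 ± 0.16 (adjusted p = 5.77e-05) and -0.70 ± 0.09 (adjusted p = 7.63e-05). AT5G14520, annotated as PESCADILLO, which acts in ribosome assembly, had 310, 338 and 302 in ARR22-ox t-zeatin, against 735, 719 and 695 in Col-0 t-zeatin. In the untreated plants AT5G14520 had 308, 308 and 280 in ARR22-ox, against 285, 302 and 320 in Col-0, which overlapped. The list had 1 gene higher and 0 lower among untreated plants, and the genotype difference was called lower after t-zeatin than without it in all 5. Over 12 nuclear RNA polymerase subunits 5 were lower and 0 higher after t-zeatin (median -0.42, 41.7% called against 33.3% of all probe sets). Without hormone 5 were higher and 0 lower. NRPB12, a small subunit, had 253, 241 and 246 in ARR22-ox t-zeatin, against 377, 405 and 405 in Col-0 t-zeatin, and it had 224, 235 and 350 in ARR22-ox untreated, against 175, 163 and 192 in Col-0 untreated. Of 8 histone genes 2 were higher and 1 lower after t-zeatin (37.5% called, against 33.3% of all probe sets). Without ARR22-ox untreated replicate 3 those counts were 3 and 2.

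With all arrays in the fit, the plastid-encoded photosynthesis, ribosomal protein and RNA polymerase genes that were called were higher, and nuclear photosynthesis transcripts were more often called lower. Of 20 plastid photosystem genes 7 were called higher and 0 lower, with a median of 0.22. That is 35% called, against 33.3% of all probe sets, of which 15.1% were higher. psbC, a photosystem II antenna protein, had 1661, 1751 and 1848 in ARR22-ox t-zeatin, against 348, 332 and 518 in Col-0 t-zeatin (2.16 ± 0.20, adjusted p = 3.47e-06). psbD, a photosystem II core protein, had 913, 971 and 1096 in ARR22-ox t-zeatin, against 354, 386 and 437 in Col-0 t-zeatin (1.34 ± 0.12, adjusted p = 2.39e-06). Both separated by genotype, and without hormone both were lower in ARR22-ox, with differences of -1.02 and -1.48. The photosystem I core gene psaA was called at 1.55 ± 0.47 (adjusted p = 0.0227) and lost the call when any 1 of 4 t-zeatin arrays was left out. Of 15 plastid ribosomal protein genes 5 were higher and 0 lower (33.3% called, the same share as over all probe sets). rpl16 had 1554, 1664 and 1781 in ARR22-ox t-zeatin, against 166, 217 and 269 in Col-0 t-zeatin (2.97 ± 0.37, adjusted p = 4.41e-05). The ATP synthase gene atpH had 886, 1017 and 948 in ARR22-ox t-zeatin, against 224, 274 and 259 in Col-0 t-zeatin. The plastid RNA polymerase gene rpoA was higher by 0.72 ± 0.12 (adjusted p = 0.00043), and petA of the cytochrome b6f complex by 0.70 ± 0.13 (adjusted p = 0.0011). Of the plastid NDH genes 0 of 10 were called, against 2 of 6 for cytochrome b6f, 2 of 6 for ATP synthase and 2 of 4 for RNA polymerase. Those shares were 0%, 33.3%, 33.3% and 50%, beside 33.3% of all probe sets. Leaving out ARR22-ox untreated replicate 3 from the variance estimate raised the higher calls to 9 of 15 for ribosomal proteins, 4 of 6 for ATP synthase and 4 of 4 for RNA polymerase, and gave 10 higher and 3 lower photosystem genes, 3 higher and 1 lower cytochrome b6f genes, and 2 higher and 1 lower NDH genes. Leaving out that array also raised the calls over all probe sets, from 7573 to 9736 of 22746, so the gain is not particular to plastid genes. The 3'/5' ratios given above also differed between the t-zeatin groups, and their part in the plastid results was not tested.

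Mitochondrion-encoded genes were called in both directions, 2 of 16 higher and 2 lower (25% called, against 33.3% of all probe sets). Of the 16, 10 lay below the median signal in both groups. ccb382, a cytochrome c maturation gene, was higher by 1.24 ± 0.13 (adjusted p = 1.4e-05), and cox2, a cytochrome oxidase subunit, lower with a difference of -1.12 ± 0.18 (adjusted p = 0.000321). Of 17 nuclear photosystem and Calvin cycle genes 1 was higher and 8 lower (median -0.26), or 2 higher and 13 lower without that untreated array. Without hormone the counts were likewise 1 higher and 8 lower (median -0.26). The genotype difference was called lower after t-zeatin than without it for 2 of the 17 and higher for 0. LHCB4.2, an antenna protein of photosystem II, had 1011, 1035 and 1103 in ARR22-ox t-zeatin, against 1700, 1853 and 1699 in Col-0 t-zeatin. PSB27, which helps assemble photosystem II, had 818, 784 and 750 in ARR22-ox t-zeatin, against 1339, 1319 and 1197 in Col-0 t-zeatin. In each gene all ARR22-ox arrays were lower, with differences of -0.74 ± 0.10 (adjusted p = 8.3e-05) and -0.71 ± 0.08 (adjusted p = 3.03e-05). The thylakoid calcium sensor CaS differed by -0.64 ± 0.11 (adjusted p = 0.000539). Of 14 chlorophyll and haem genes 3 were lower and 0 higher (21.4% called, against 33.3% of all probe sets), or 7 lower and 1 higher without that untreated array. CHLM, a chlorophyll methyltransferase, had 386, 381 and 408 in ARR22-ox t-zeatin, against 547, 643 and 641 in Col-0 t-zeatin.

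Enzymes that attach sugars or glutathione to small molecules were more often called higher. Of 49 UDP-glycosyltransferases 22 were higher and 5 lower (median 0.83), but 22 of the 49 lay below the median signal in both groups. Without hormone 19 were called higher and 6 lower. UGT76E12 had 153, 157 and 143 in ARR22-ox t-zeatin, against 19.8, 24.4 and 21.1 in Col-0 t-zeatin (2.80 ± 0.29, adjusted p = 9.83e-06). UGT71B6, which can glucosylate abscisic acid, had 23.6, 27.7 and 20.4 in ARR22-ox t-zeatin, against 1.29, 1.44 and 0.842 in Col-0 t-zeatin, and its difference of 4.35 ± 0.49 shrank to 1.21 with the offset. UGT74B1, a glucosinolate enzyme, was higher by 0.87 ± 0.07 (adjusted p = 1.63e-06). UGT72E2, which acts on lignin precursors, had 75.8, 72.5 and 76.5 in ARR22-ox t-zeatin, against 202, 213 and 204 in Col-0 t-zeatin and was lower on every array. Together with UGT76C2, UGT72E2 is thus an exception to the direction of most called members.

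Of 21 beta-glucosidases 7 were higher and 4 lower. BGLU46 had 157, 203 and 248 in ARR22-ox t-zeatin, against 29.2, 31.2 and 33.7 in Col-0 t-zeatin (2.67 ± 0.31, adjusted p = 2.2e-05), and BGLU40 was lower (-1.22 ± 0.12, adjusted p = 4.51e-06). Of 14 glutathione transferases 5 were higher and 2 lower after t-zeatin, and 6 were higher and 1 lower without hormone. Of the 14, 7 lay below the median signal in both t-zeatin groups. GSTU16 had 206, 200 and 203 in ARR22-ox t-zeatin, against 85.2, 71.8 and 70.8 in Col-0 t-zeatin, while GSTU26 had 119, 116 and 135 in ARR22-ox t-zeatin, against 335, 332 and 360 in Col-0 t-zeatin. Of 23 cytochrome P450 genes 6 were higher and 1 lower (30.4% called, against 33.3% of all probe sets), and 16 lay below the median signal in both groups. CYP71B23 differed by 1.71 ± 0.17 (adjusted p = 7.35e-06) and CYP71B6 by 1.17 ± 0.12 (adjusted p = 1.06e-05). Called serine carboxypeptidase-like genes were more often lower, with 2 of 29 higher and 9 lower (37.9% called, against 33.3% of all probe sets). Their median was -0.24, and 16 of the 29 lay below the median signal in both groups. SCPL45 had 24.8, 35.7 and 45.2 in ARR22-ox t-zeatin, against 71.2, 87.7 and 82.2 in Col-0 t-zeatin. SCPL34 was higher in ARR22-ox t-zeatin (0.99 ± 0.10, adjusted p = 5.69e-06) and lower in ARR22-ox untreated, with an untreated difference of -1.62.

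Genes of protein turnover and membrane traffic had modest differences. Of 10 autophagy genes 5 were higher and 0 lower (median 0.44). ATG8H, an ATG8 protein that coats autophagosome membranes, had 142, 134 and 147 in ARR22-ox t-zeatin, against 74.2, 70.7 and 61.5 in Col-0 t-zeatin (1.04 ± 0.09, adjusted p = 1.53e-06). ATG8E was higher by 0.72 ± 0.17 (adjusted p = 0.00495) after t-zeatin, whereas its untreated difference was -1.41. Of 12 ESCRT genes, which sort membrane proteins for breakdown, 5 were higher and 1 lower, or 8 and 2 once ARR22-ox untreated replicate 3 was left out. VPS60.1 had 142, 134 and 129 in ARR22-ox t-zeatin, against 72.2, 67.6 and 71.7 in Col-0 t-zeatin, a difference of 0.94 ± 0.21 (adjusted p = 0.00359). GAMMA-VPE, a vacuolar protease, had 562, 594 and 574 in ARR22-ox t-zeatin, against 302, 319 and 324 in Col-0 t-zeatin. Its arrays were tight in both groups, and the difference was 0.87 ± 0.06 (adjusted p = 2.91e-07). Of 12 ubiquitin-conjugating enzymes 5 were higher and 3 lower, with UBC29 at 0.84 ± 0.08 (adjusted p = 5.44e-06). Tetraspanins split evenly, 4 of 15 higher and 4 lower (53.3% called, against 33.3% of all probe sets), with TET5 at 1.11 ± 0.14 and TET7 at -0.86 ± 0.10. Of the 15, 8 lay below the median signal in both groups. Of 7 exocyst subunits 1, SEC15B, was called (14.3%, against 33.3% of all probe sets), with a difference of 0.50 ± 0.10 (adjusted p = 0.00195). Without ARR22-ox untreated replicate 3, 2 of the 7 were called.

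Several smaller groups held clear single genes. Of 13 defensin and LCR genes 6 were higher and 3 lower (69.2% called, against 33.3% of all probe sets). Of the 13, 8 lay below the median signal in both groups. PDF1.4 had 86.5, 90.1 and 92.2 in ARR22-ox t-zeatin, against 15.7, 19.8 and 20.5 in Col-0 t-zeatin, while LCR69 had 1085, 1123 and 1071 in ARR22-ox t-zeatin, against 1547, 1552 and 1540 in Col-0 t-zeatin. Of 14 bZIP factors 3 were higher and 2 lower (35.7% called, against 33.3% of all probe sets). bZIP44 had 174, 153 and 138 in ARR22-ox t-zeatin, against 49.3, 48.8 and 50.3 in Col-0 t-zeatin, and BZIP61 had 9.88, 18.4 and 6.9 in ARR22-ox t-zeatin, against 70.5, 82.9 and 72.1 in Col-0 t-zeatin. bZIP44 was higher and BZIP61 lower on every ARR22-ox array, by 1.64 ± 0.12 and -2.80 ± 0.37 in log2 difference. BZIP60, a factor of the unfolded protein response, was higher by 0.81 ± 0.14 (adjusted p = 0.000475). Of 14 SWEET sugar transporters 1 was higher and 3 lower (28.6% called, against 33.3% of all probe sets). SWEET11, which exports sucrose for phloem loading, had 1029, 1046 and 1068 in ARR22-ox t-zeatin, against 652, 754 and 756 in Col-0 t-zeatin. LTI30, a dehydrin, had 677, 628 and 672 in ARR22-ox t-zeatin, against 244, 245 and 214 in Col-0 t-zeatin. It was the 1 called gene of 9 dehydrin, COR and LEA genes (11.1%, against 33.3% of all probe sets). Without ARR22-ox untreated replicate 3, 4 of the 9 were called. In the iron list AT1G47400 had 445, 459 and 440 in ARR22-ox t-zeatin, against 147, 141 and 129 in Col-0 t-zeatin (1.69 ± 0.13, adjusted p = 6.18e-07). The untreated difference of AT1G47400 was larger, at 5.41, and its t-zeatin difference minus the untreated one was called at -3.72. BHLH101, also on the iron list, did not pass the test after t-zeatin (-0.18 ± 0.82, adjusted p = 0.903). PYE, an iron-deficiency regulator, was called at 0.82 ± 0.24 (adjusted p = 0.0172) and lost the call when any 1 of 3 t-zeatin arrays was left out.

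Several groups held no call after t-zeatin in the limma test, among them the 5 anthocyanin and flavonoid genes, the 4 abscisic acid, cold and drought genes, the 10 plastid NDH genes, the 12 ubiquitin proteases and the 8 glutamate receptor-like genes. At an unadjusted p under 0.05, 2 of the ubiquitin proteases and 3 of the glutamate receptor-like genes passed, and 0 genes of the first 3 groups. DFR, an anthocyanin enzyme, had 78, 84.7 and 80.5 in ARR22-ox t-zeatin, against 62.8, 55.9 and 53.4 in Col-0 t-zeatin, a difference of 0.50 ± 0.45 (adjusted p = 0.451). It had 1066, 1272 and 239 in ARR22-ox untreated, against 118, 139 and 144 in Col-0 untreated. All 5 anthocyanin and flavonoid genes were called higher in ARR22-ox untreated (median 2.39), and for all 5 the genotype difference was called smaller after t-zeatin. Without ARR22-ox untreated replicate 3, whose DFR signal was the lowest of its group, 3 of the 5 were called higher and 1 lower after t-zeatin, and 3 of the 4 abscisic acid, cold and drought genes were called higher. Without that array 2 of the glutamate receptor-like genes were called higher, and 1 ubiquitin protease was called higher and 1 lower. EIN3, the ethylene transcription factor, and GI, a clock gene, had differences of -0.06 ± 0.18 and -0.26 ± 0.48 and did not pass the test.

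**Figure D4:**
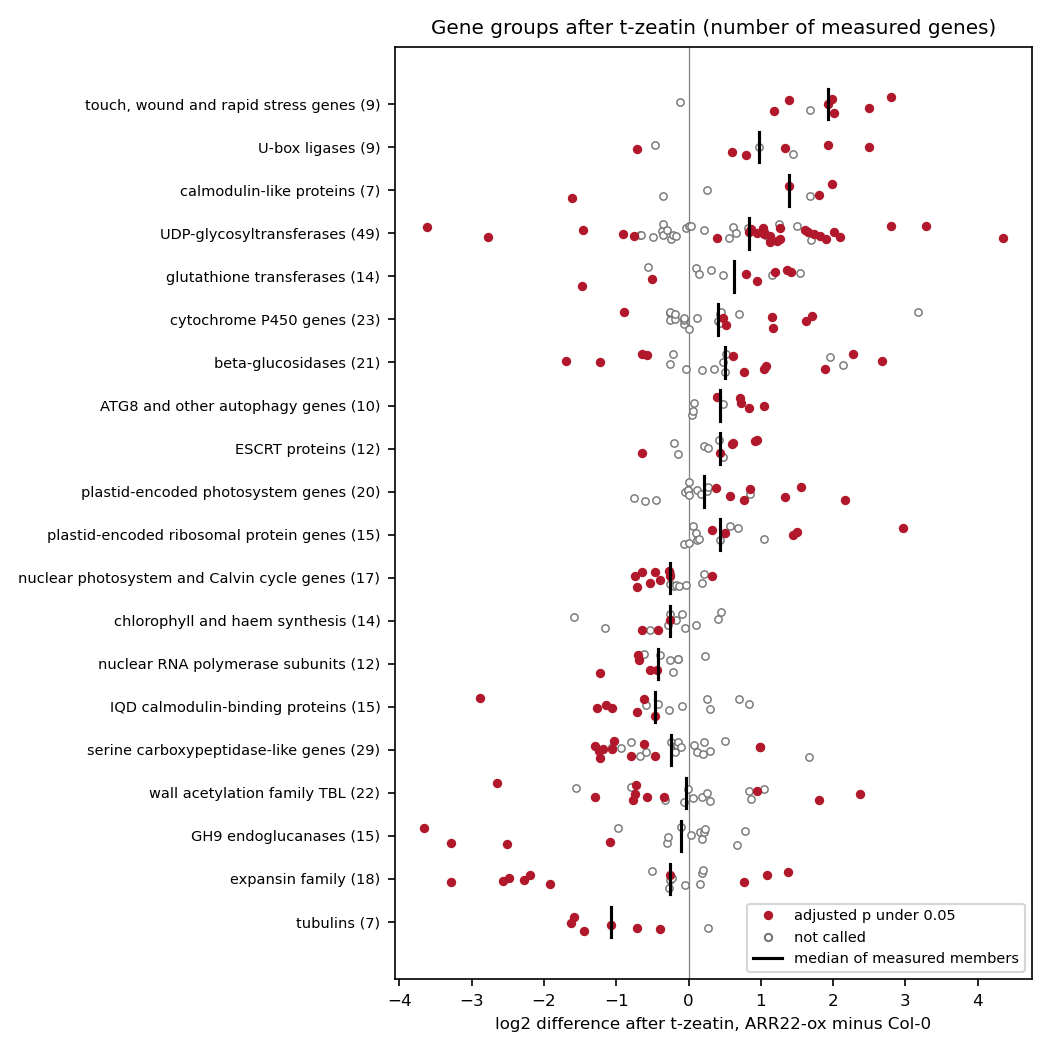
Log2 difference after t-zeatin, ARR22-ox minus Col-0, of each measured gene in 20 gene groups. Filled points were called and open points were not, and bars mark group medians, from -1.07 for tubulins to 1.93 for the touch and wound list, beside -0.04 over all probe sets.

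The genotype difference in untreated plants was called for 7035 probe sets (30.9%), with 15.5% (3518) higher and 15.5% (3517) lower in ARR22-ox. It shares no array with the t-zeatin comparison, but shares its variance estimate. Of the 3445 probe sets higher after t-zeatin, 1194 (34.7%; 33.9% of the untreated higher calls) were also higher without hormone. Another 738 (21.4%) were called lower without hormone, and 1513 (43.9%) were not called there. Of the 4128 lower after t-zeatin, 1253 (30.4%; 35.6% of the untreated lower calls) were also lower without hormone, 800 (19.4%) were called higher and 2075 (50.3%) were not called. The difference between the genotype differences was called for 6427 probe sets (28.3%), 13.1% (2970) higher and 15.2% (3457) lower after t-zeatin. It was called for 904 of the 1513 and for 1229 of the 2075, so the rest were called in only 1 comparison without a called difference between the comparisons. Among probe sets called in the same direction in both, 867 higher and 870 lower ones had no called difference.

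At least 2-fold differences after t-zeatin were found in 928 genes that also met the rule on overlap and signal. Of these, 175 higher and 147 lower genes had no call without hormone and a called difference between the comparisons. ARR15 and AT5G12110 were among the lower ones. AT5G12110 had 72.3, 78.4 and 69.9 in ARR22-ox untreated, against 66.2, 82.3 and 78.6 in Col-0 untreated, which overlapped. AT5G45950 had 31.2, 39.4 and 37.9 in ARR22-ox t-zeatin, against 227, 236 and 251 in Col-0 t-zeatin, and it had 116, 127 and 84.6 in ARR22-ox untreated, against 124, 111 and 114 in Col-0 untreated. Only the t-zeatin groups separated in this gene. On the higher side AT2G22880 had 273, 282 and 265 in ARR22-ox t-zeatin, against 16.3, 32.8 and 25.9 in Col-0 t-zeatin, and AT5G40590 had 188, 217 and 185 in ARR22-ox t-zeatin, against 19.6, 16.2 and 21.9 in Col-0 t-zeatin. Their untreated differences were 0.06 and 0.08. AT3G03670 and AT5G52050, which the annotation lists as the efflux carrier DTX50, were higher by 3.64 and 3.13.

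Another 117 higher and 107 lower genes of at least 2-fold had the same direction without hormone and no called difference. RR22 belongs here. AT1G49570 had 521, 568 and 389 in ARR22-ox untreated, against 29.1, 31.4 and 22.3 in Col-0 untreated, close to its t-zeatin values. AT1G73040 had 230, 236 and 224 in ARR22-ox t-zeatin, against 14.9, 22.9 and 17.7 in Col-0 t-zeatin, and 480, 497 and 842 in ARR22-ox untreated, against 31.1, 22.8 and 27.4 in Col-0 untreated. On the lower side were GH9B13 (-3.28 after t-zeatin and -2.77 without) and AT1G31690 (-2.95 after t-zeatin and -3.03 without).

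Opposite directions with a called difference were found in 104 genes that were higher and 70 that were lower by at least 2-fold after t-zeatin. XTH18 had 119, 123 and 29.9 in ARR22-ox untreated, against 430, 424 and 331 in Col-0 untreated, the reverse of its t-zeatin values. CML38 had 161, 153 and 151 in ARR22-ox t-zeatin, against 37.2, 47.7 and 33.8 in Col-0 t-zeatin, and 46.2, 50.6 and 38 in ARR22-ox untreated, against 159, 155 and 182 in Col-0 untreated. AT1G15010 had 194, 199 and 205 in ARR22-ox t-zeatin, against 50.3, 42.2 and 47.6 in Col-0 t-zeatin, and 21.2, 23.7 and 27.4 in ARR22-ox untreated, against 140, 144 and 134 in Col-0 untreated. CML38 and AT1G15010 had no overlap between genotypes in either condition. The largest difference between the comparisons among the 12 genes named by this rule was that of AT2G43140, with 3.52 after t-zeatin and -3.65 without. AT3G21670, annotated as the transporter NPF6.4, ran the other way, with 114, 176 and 141 in ARR22-ox t-zeatin, against 442, 540 and 429 in Col-0 t-zeatin, and 363, 460 and 601 in ARR22-ox untreated, against 196, 177 and 185 in Col-0 untreated. AT5G02050 differed by -1.11 after t-zeatin and 1.14 without.

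**Figure D5:**
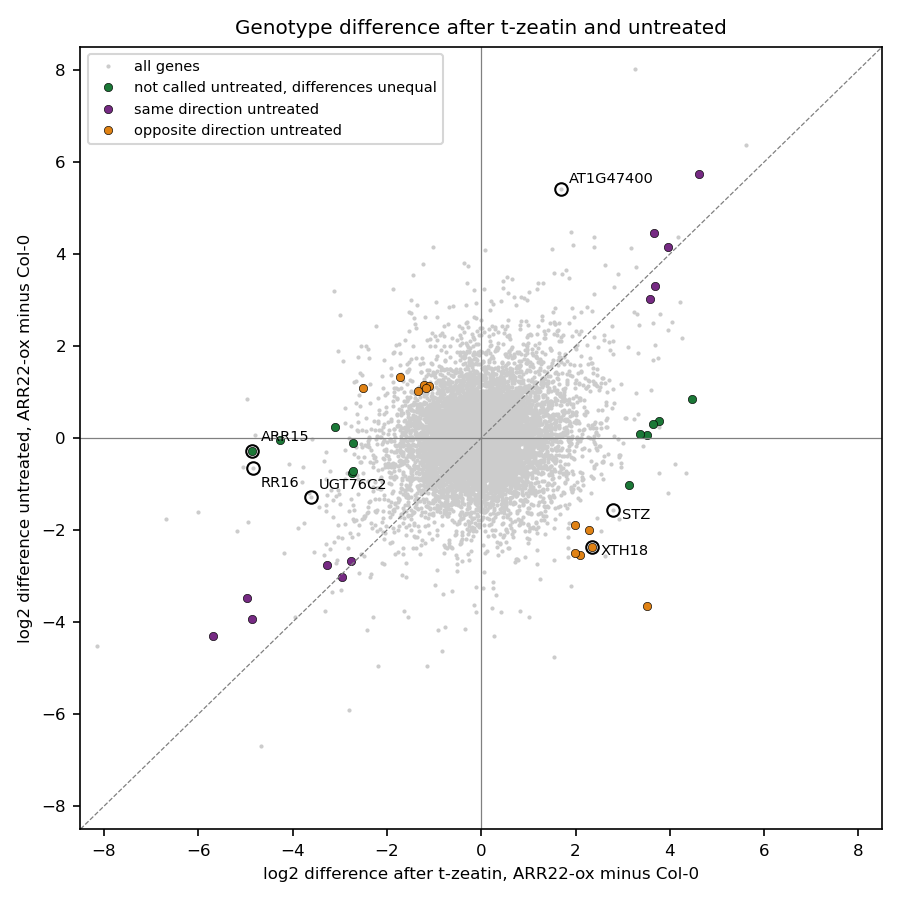
Log2 difference, ARR22-ox minus Col-0, after t-zeatin (horizontal) and untreated (vertical) for 13350 genes (grey). The named genes of the 3 patterns are in colour and the line of equality is dashed. RR22 lies beyond the axes, and ARR15, RR16, UGT76C2, XTH18, AT1G47400 and STZ are circled.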

How the data were processed

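Labelled RNA of whole plants was measured on 12 single-colour arrays. The deposited values are linear array intensity, or signal, for each probe set, made with MAS5, per the submitters' processing notes. Each deposited array had a mean signal of 100 after 2% was trimmed from each end. Detection calls were not used here, and no sequences or coordinates are printed because none were among the sources used here.

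From the deposited intensity, 64 control probe sets of 22810 were left out, and log2 signals of the other 22746 were fitted with limma 3.58.1 in R 4.3.3. The model had 4 group means and 8 residual degrees of freedom, with empirical Bayes moderation and a variance trend. Tests were two-sided, with Benjamini-Hochberg adjustment over all 22746 probe sets. The fit was checked on simulated data. Replicate numbers follow accession order and pair nothing. The number of arrays limits the precision.

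Genes were named from 13513 probe sets with 1 gene, while 503 had several and 8730 none. The brightest probe set stood for a gene, which left 13350 genes. Named were the 15 highest and 15 lowest called genes that did not overlap and had a higher group mean of at least 42.2. Also named were up to 6 genes per direction of at least 2-fold for each pattern of the untreated difference, members of 28 gene lists, and up to 3 called genes per direction in each of 43 families, not all of which are reported here. Families were written by gene symbol after the annotation had been seen. The members and lists were chosen with earlier results of these data known. Annotation limited the lists: 2 of 10 listed type-A response regulators were measured under a name, and 8 lists, cytokinin receptors among them, held 0 named genes. Alternatives were 40th and 60th percentile filters on mean signal, quantile normalization, equal medians, an offset of 16, no variance trend, only the 6 t-zeatin arrays, a 2-fold minimum, and each of 12 arrays left out.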

Additional observations from a re-analysis of the deposited data

Results flagged for a closer look

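The genotype difference after t-zeatin differed from the untreated genotype difference, by limma's test of the difference itself, for 6427 probe sets. The values below are the t-zeatin difference minus the untreated difference, ARR22-ox over Col-0 in log2 units. They are given for genes chosen for the size or pattern of their t-zeatin difference whose adjusted p was under 0.05. For genes chosen as not called or opposite without hormone, a called difference between the comparisons was part of the choice. Their passing here was therefore fixed in advance.

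Among cytokinin and wall genes it was -4.57 for ARR15, -4.18 for RR16, -2.34 for UGT76C2, -2.46 for GH9B8 and 4.72 for XTH18. The calcium sensor CML38 had 3.87 and the TFL1 relative ATC 1.61.

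Negative values were also found for loci that the array annotation gives by locus number. They were -4.91 for AT3G57010, -4.23 for AT5G12110, -3.65 for AT4G11190, -3.60 for AT3G52170, -3.35 for AT5G20740, -3.17 for AT5G47980 and -3.05 for AT3G21670. Smaller ones were -2.61 for AT5G45950, -2.37 for AT5G51440, -2.36 for AT1G30960, -2.26 for AT3G12860, -2.25 for AT5G02050 and -2.01 for AT3G50300. The smallest were -1.98 for AT5G50740, -1.95 for AT5G24580, -1.71 for AT2G30540 and -1.70 for AT1G14960.

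Positive values reached 7.17 for AT2G43140, 4.64 for AT1G15010, 4.54 for AT2G39980, 4.49 for AT4G18250, 4.27 for AT4G28085 and 4.14 for AT5G52050. They were 3.65 for AT5G22555, 3.46 for AT2G22880, 3.40 for AT5G39580, 3.33 for AT3G03670 and 3.28 for AT5G40590. AT5G19890 had 2.08 and AT4G26950 had 1.67.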

How the results depend on the processing

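The count of 7573 calls after t-zeatin was 7087 without a variance trend, 7787 with an offset of 16, 7651 after quantile normalization, 7449 with equal medians and 9716 with only the 6 t-zeatin arrays. Filters at the 40th and 60th percentiles left 6966 calls of 13648 probe sets and 5111 of 9099. Requiring at least a 2-fold difference left 2665 calls, 1408 higher and 1257 lower in ARR22-ox, because that rule is stricter by construction. Leaving out 1 array at a time gave 6414 to 9736 calls after t-zeatin, 5751 to 9052 untreated and 5592 to 8574 for the difference between them. The count of 9736 came without ARR22-ox untreated replicate 3, where 7569 of the 7573 calls were kept. Of the 236 named genes 214 were called, and 183 of these under every alternative that tested them. No called result changed direction under these alternatives. No paired analysis was possible because the labels give no replicate numbers that groups share. Dim signals limit what can be read, since differences of probe sets below the median signal shrink when 16 is added.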

Other observations

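Further genes were chosen after their values were seen, from outside the naming rule, and their signals are means ± SD of 3 arrays with limma's adjusted p. The first 4 are genes of RNA processing or ribosome assembly, picked singly, and other genes of that kind were not counted. TRM82, a subunit of a tRNA methyltransferase, had 52 ± 2.9 in ARR22-ox t-zeatin and 150 ± 9.11 in Col-0 t-zeatin (-1.53, adjusted p = 1.92e-05). RRP41L, related to an exosome subunit, had 36.9 ± 5.71 in ARR22-ox t-zeatin and 106 ± 8.34 in Col-0 t-zeatin (-1.53, adjusted p = 1.94e-06). IMP4, a nucleolar processing factor, had 187 ± 6.18 in ARR22-ox t-zeatin and 360 ± 8.81 in Col-0 t-zeatin (-0.94, adjusted p = 0.00213). PRH75, a nucleolar RNA helicase, had 301 ± 8 in ARR22-ox t-zeatin and 574 ± 32.9 in Col-0 t-zeatin (-0.93, adjusted p = 2.06e-05). All 4 had untreated differences of smaller size, from -0.31 to 0.38. STOMAGEN, a secreted peptide that promotes stomata, had 36.8 ± 2.63 in ARR22-ox t-zeatin and 132 ± 7.79 in Col-0 t-zeatin (-1.85, adjusted p = 4.71e-08), while its untreated difference was -0.06 (adjusted p = 0.735). The chaperone Hsp70-2 had 104 ± 10.2 in ARR22-ox t-zeatin and 302 ± 29.5 in Col-0 t-zeatin (-1.54, adjusted p = 1.12e-07).

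On the higher side, BIK1, a kinase that relays immune receptor signals, had 290 ± 41.7 in ARR22-ox t-zeatin and 113 ± 4.03 in Col-0 t-zeatin (1.35, adjusted p = 7.14e-07). Its untreated difference of -0.09 did not pass the test (adjusted p = 0.579). ARL, related to the organ size regulator ARGOS, had 884 ± 31.5 in ARR22-ox t-zeatin and 247 ± 8.93 in Col-0 t-zeatin (1.84, adjusted p = 7.73e-06), but its untreated difference was -1.96. APS3, an ATP sulfurylase of sulphate assimilation, likewise had 369 ± 5.27 in ARR22-ox t-zeatin and 133 ± 8.29 in Col-0 t-zeatin (1.47, adjusted p = 2.69e-08) and an untreated difference of -1.37. PPDK, pyruvate orthophosphate dikinase, had 730 ± 21.1 in ARR22-ox t-zeatin and 162 ± 8.46 in Col-0 t-zeatin (2.17, adjusted p = 3.81e-09). GAT1_2.1, a glutamine amidotransferase-like gene, had 549 ± 27 in ARR22-ox t-zeatin and 78 ± 0.56 in Col-0 t-zeatin (2.81, adjusted p = 6.5e-09). The asparaginase gene ASPGB1 had 102 ± 5.29 in ARR22-ox t-zeatin and 34.5 ± 1.35 in Col-0 t-zeatin (1.56, adjusted p = 1.31e-05). The peroxidase gene Prx37 had 659 ± 31.4 in ARR22-ox t-zeatin and 153 ± 13.4 in Col-0 t-zeatin (2.11, adjusted p = 1.46e-07), and the cell wall invertase-like gene cwINV6 had 154 ± 15.9 in ARR22-ox t-zeatin and 35 ± 1.97 in Col-0 t-zeatin (2.14, adjusted p = 7.63e-07). Jacalin-related lectins went both ways, with 202 ± 8.04 in ARR22-ox t-zeatin and 70.2 ± 1.19 in Col-0 t-zeatin (1.52, adjusted p = 4.28e-08) for JAL23 and 305 ± 13.7 in ARR22-ox t-zeatin and 741 ± 16.8 in Col-0 t-zeatin (-1.28, adjusted p = 1.88e-06) for JAL33.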
